A study of Mus musculus with 6 samples.

Results

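The genes described here are 10 genes of the contractile and actin-binding machinery that are known or likely targets of serum response factor (SRF): Acta2, Tagln, Cnn1, Myl9, Actg2, Tpm1, Tpm2, Vcl, Srf itself and Myh9. They were chosen by name, as every non-control probe that the scanner files assign to these symbols, which gave 18 of 55681 probes and 10 of 22942 genes. The cells were 3T3, an established line of mouse embryonic fibroblasts, transfected with GapmeR Ntep or GapmeR control and harvested after 48 h at a labelled concentration of 50 nM. A GapmeR is an antisense oligonucleotide through which RNase H cuts a chosen RNA, here the long noncoding RNA Ntep, and GapmeR control is the negative control oligonucleotide. Both labels shared the line, the medium with 10% serum, the transfection and the time point, and untransfected cells were not analysed here. There were 3 independent experiments with 1 array for each GapmeR, so that each label had 3 arrays.

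SRF is a transcription factor that binds the CArG box, a short motif with a core of A and T between a pair of C and a pair of G. It works with partners of either of 2 kinds. Myocardin-related factors such as Mkl1 are held in the cytoplasm by free actin and are released when actin filaments form, and they drive the contractile and cytoskeletal genes. Ternary complex factors such as Elk1 answer to growth factor kinases and drive immediate early genes. In fibroblasts the contractile genes are known as markers of the myofibroblast, the contractile cell of wounds and scars.

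Promoters of 8 of the 10 genes were found in the RefSeq table (GRCm38.p6), each running from 250 bases before the transcription start to 50 bases after it. Tagln and Actg2 were not matched. The CArG box was searched on both strands, where it reads alike. A match in all letters stood in the promoters of Srf, Vcl and Myl9, that is in 3 of 8, against 1.63% of 32851 promoters of the same length. With at most 1 letter off, 5 of 8 held a match, against 21.1% of all. The promoters of those 3 genes and that of Acta2 follow with the matches in capitals, because the CArG box is the motif that SRF binds. Srf carried complete matches that begin at -82 and -62 relative to the start and a further one with 1 letter off at -39, Vcl a complete match at -227 and Myl9 one at -161. Acta2, which encodes smooth muscle alpha-actin, carried matches with 1 letter off at -84 and -34. No match was found in Cnn1, Tpm2 and Myh9 in this window. A match describes the letters only. The sequences are those of the gene's own strand at chr17:46556113-46556412 (minus) for Srf, chr14:20929148-20929447 (plus) for Vcl, chr2:156775214-156775513 (plus) for Myl9 and chr19:34255324-34255623 (minus) for Acta2.
Srf: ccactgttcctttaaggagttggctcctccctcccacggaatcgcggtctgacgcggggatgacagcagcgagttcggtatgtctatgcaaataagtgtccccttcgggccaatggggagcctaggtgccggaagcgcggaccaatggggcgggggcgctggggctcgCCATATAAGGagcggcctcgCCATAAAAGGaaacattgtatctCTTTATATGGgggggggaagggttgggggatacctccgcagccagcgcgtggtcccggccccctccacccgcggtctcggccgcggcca
Vcl: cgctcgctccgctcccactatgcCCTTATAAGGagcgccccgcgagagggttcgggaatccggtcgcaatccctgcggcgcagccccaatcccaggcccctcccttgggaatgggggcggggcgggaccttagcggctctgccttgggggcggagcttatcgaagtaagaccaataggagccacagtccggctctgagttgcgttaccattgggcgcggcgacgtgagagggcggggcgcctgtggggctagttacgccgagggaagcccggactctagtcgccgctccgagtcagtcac
Myl9: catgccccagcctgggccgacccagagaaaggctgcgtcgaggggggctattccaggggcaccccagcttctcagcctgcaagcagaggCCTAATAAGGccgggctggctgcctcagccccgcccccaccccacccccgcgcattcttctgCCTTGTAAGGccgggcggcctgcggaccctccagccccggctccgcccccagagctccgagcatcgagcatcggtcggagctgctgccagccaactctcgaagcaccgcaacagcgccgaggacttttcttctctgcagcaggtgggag
Acta2: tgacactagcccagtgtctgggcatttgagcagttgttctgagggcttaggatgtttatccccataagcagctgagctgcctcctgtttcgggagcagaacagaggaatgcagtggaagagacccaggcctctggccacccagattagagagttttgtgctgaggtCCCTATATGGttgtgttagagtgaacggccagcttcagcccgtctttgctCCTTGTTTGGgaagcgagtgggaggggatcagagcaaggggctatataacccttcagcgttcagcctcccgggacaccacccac

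Signals are intensities of 1-color arrays after quantile normalization, with values under 20 set to 20. Per array 43.7 to 53.3% of probes were well above background, and none was saturated. The single probe for Ntep (A630089N07Rik) read 471.9, 91.45 and 226.2 on the GapmeR Ntep arrays of experiments 1, 2 and 3, and 271.4, 272.4 and 361.2 on the GapmeR control arrays. It was thus lower in experiments 2 and 3 and higher in experiment 1 on the array labelled GapmeR Ntep, and its log2 difference of -0.48 (SE 0.58) did not pass the test (limma adjusted p = 0.632). Directions below are therefore those of the labels. Differences are on the log2 scale as GapmeR Ntep minus GapmeR control, with limma's SE and a p adjusted over all 30990 tested probes (Benjamini-Hochberg, two-sided, limit 0.05). An exact permutation test of 3 against 3 arrays cannot go below 0.1.

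Tpm1, the gene of alpha-tropomyosin, was the only one of the 10 genes to pass the adjusted limit without pairing of the arrays. It fell at 2 of its 5 probes. By limma 0 genes rose, also at an unadjusted p under 0.05. Among all 15242 tested genes, 7.39% passed by the same rule (3% upwards and 4.4% downwards), so 1 of 10 is a share near the background. With limits of 2-fold and an unadjusted p of 0.01 the count was again 1 of 10, against 10.9% of all genes. By the brightest probe of each gene 6 genes were higher and 4 lower (49.8% of all genes were lower), with a median difference of 0.34 against 0 over all genes. Within experiments 1, 2 and 3 the median was -0.16, 0.83 and 0.36. All 18 probes were tested, and 16 of them were well above background on all 6 arrays.

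With the experiments as blocks, Actg2 and Tagln rose as well, and the count was 3 of 10 genes against 19% of all genes. Upward calls were then 2 of 10 against 8.84%, and downward calls 1 of 10 against 10.2%. Across the 18 probes, the arrays of the labels did not overlap for 4, with 3 lower (1 of them a dim Myh9 probe that was tested only because of its control signal) and 1 higher on GapmeR Ntep, against 32.1% of all tested probes (15.1% lower and 17% higher). In each of the 3 experiments, 5 probes were higher and 4 were lower on GapmeR Ntep, against 32.4% and 26.7% of all tested probes.

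**Figure D1:**
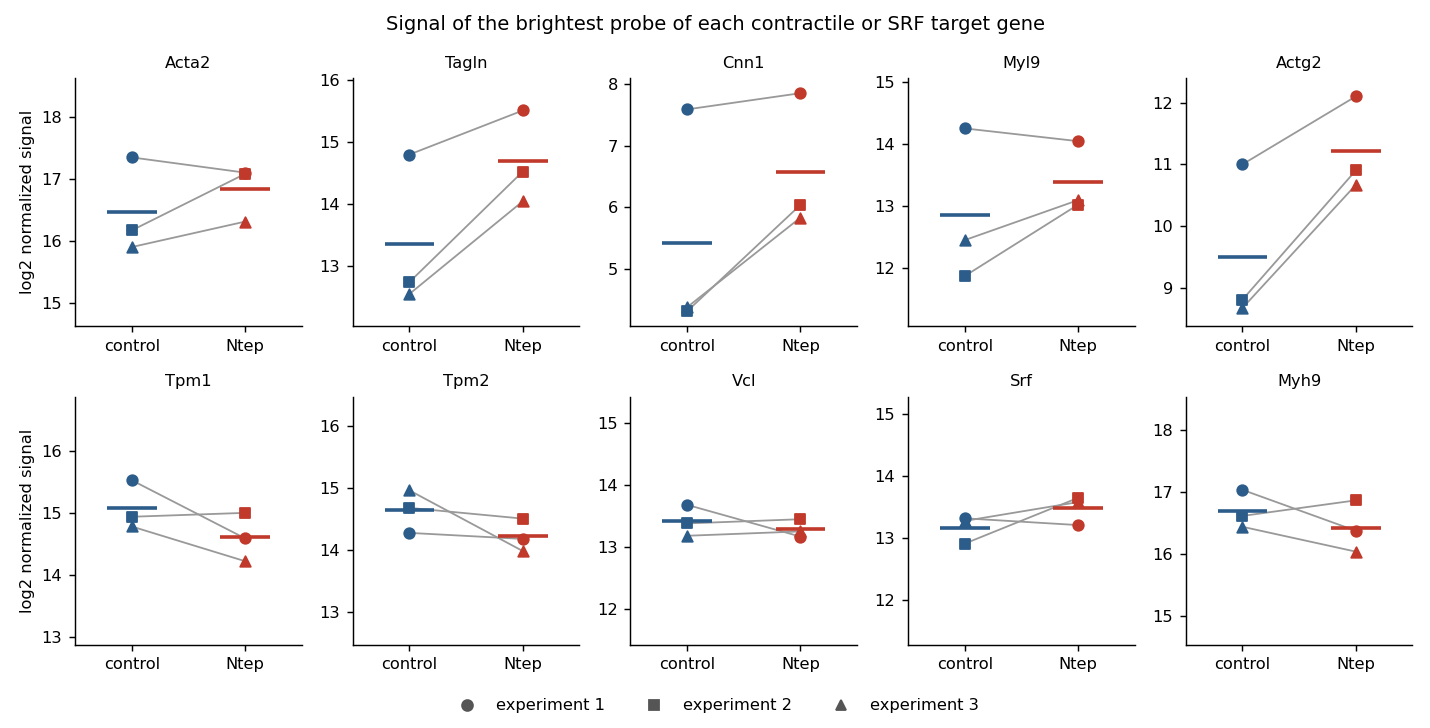
Log2 normalized signal of the brightest probe of each of the 10 genes on the GapmeR control (blue) and GapmeR Ntep (red) arrays, with lines joining the arrays of 1 experiment and bars at the label means (n = 3 arrays each). Every panel spans the same height on the log2 scale. Tagln, Cnn1 and Actg2 go up in each experiment from very different control levels, while the label means of Vcl differ by -0.13.

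Actg2, the smooth muscle gamma-actin of visceral muscle, had the largest upward difference of the 10 genes. Its signal was 4388, 1915 and 1629 on the GapmeR Ntep arrays of experiments 1 to 3 and 2050, 450.3 and 410.3 on the GapmeR control arrays. The control array of experiment 1 exceeded the GapmeR Ntep arrays of experiments 2 and 3, so the labels overlapped, yet the GapmeR Ntep array was the higher in every experiment. The differences within experiments were 1.10, 2.09 and 1.99, with a mean of 1.73 or 3.31-fold. Without pairing this did not pass (SE 0.72, limma adjusted p = 0.208, exact permutation p = 0.3). With the experiments as blocks it rose (SE 0.26, limma adjusted p = 0.0364).

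Tagln, which encodes the actin-binding protein transgelin (SM22), behaved alike. It read 46710, 23580 and 16900 on GapmeR Ntep against 28530, 6839 and 5986 on GapmeR control. Here too the control array of experiment 1 stood above the GapmeR Ntep arrays of the other experiments. The differences within experiments were 0.71, 1.79 and 1.5, and the mean was 1.33 or 2.52-fold. The unpaired test was not passed (SE 0.70, limma adjusted p = 0.295, exact permutation p = 0.3), and with the experiments as blocks it rose (SE 0.26, limma adjusted p = 0.0488). Leaving out experiment 1, whose Ntep probe went against its label, was chosen after the values were seen. The differences were then 1.64 for Tagln and 2.04 for Actg2. Over the remaining 4 arrays the unpaired limma adjusted p was 0.0563 for Tagln and 0.0461 for Actg2, and with blocks it was 0.0992 for both.

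The probes behind these values lie at chr6:83462904-83462963 (Actg2), chr9:45738097-45738156 (Tagln) and chr19:34316060-34316119 (Acta2) of mm9. The first 30 of their 60 bases are shown as the files write them, with no part marked, since the actin genes resemble each other closely in coding sequence. Whether these probes also bind other actin transcripts was not analysed here.
Actg2: tctggggatccccacaagactgctgtcacc
Tagln: ctttgaaggagacccagcccagcctctaca
Acta2: gttttgtggatcagcgcctccagttccttt

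Acta2, the myofibroblast marker, was present as 10 spots per array, whose signals varied by 1.95 to 5.26% (CV) within an array. It read 140600, 138700 and 81270 on GapmeR Ntep and 166800, 73650 and 61110 on GapmeR control. The highest array was thus a control array, and the labels overlapped. The difference was -0.25 in experiment 1, 0.91 in experiment 2 and 0.41 in experiment 3. The mean of 0.36 was smaller than its SE of 0.44 (limma adjusted p = 0.639, exact permutation p = 0.6), and it stayed short of the limit with blocks (limma adjusted p = 0.385). It was 0.80 without GapmeR control replicate 1 and 0.07 without GapmeR control replicate 3.

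Myl9, the regulatory light chain of smooth muscle and nonmuscle myosin, was, like Acta2, lower on GapmeR Ntep in experiment 1 and higher in the other experiments. Its values were 16980, 8340 and 8776 on GapmeR Ntep and 19590, 3750 and 5608 on GapmeR control. That is -0.21, 1.15 and 0.65 within experiments, with a mean of 0.53 (SE 0.66, limma adjusted p = 0.641) that was 1.23 without GapmeR control replicate 1 and 0.04 without GapmeR control replicate 2. Cnn1, which encodes the actin- and myosin-binding protein calponin, was dim. It read 230.0, 65.86 and 57.07 on GapmeR Ntep and 191.8, 20 and 20.92 on GapmeR control, where 20 is the floor, and was well above background on 2 and 1 arrays of the labels. It was higher in each experiment, by 0.26, 1.72 and 1.45, with a mean of 1.14 (SE 1.03) and a limma adjusted p of 0.517 without and 0.0974 with blocks. The mean of Cnn1 was 0.51 to 2.22 with 1 array left out (0.51 without GapmeR Ntep replicate 1, 2.22 without GapmeR control replicate 1) and 0.28 with a floor of 50. Without experiment 1 it was 1.58 (limma adjusted p = 0.0482 unpaired and 0.0992 with blocks). In that setting Cnn1 was tested only because of its GapmeR Ntep signal, and its control arrays lay at or near the floor.

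The spread behind the unpaired tests of these 5 genes lay between experiments. The control array of experiment 1 stood above the mean of control arrays 2 and 3 by 2.25 for Actg2, 2.16 for Tagln, 2.09 for Myl9 and 1.31 for Acta2 on the log2 scale. Of all tested genes 1.15 to 3.73% were as high or higher on this measure. For Cnn1 control arrays 2 and 3 lay at or near the floor, which sets the size of its 3.23. The GapmeR Ntep array of experiment 1 was likewise above the other arrays of its label, by 1.91 for Cnn1, 1.31 for Actg2, 1.23 for Tagln, 0.99 for Myl9 and 0.40 for Acta2. For the other 5 genes the brightest probe differed by -0.54 to 0.67 between control array 1 and the others. In experiment 1 the control level of Acta2, Tagln, Cnn1, Myl9 and Actg2 was highest. There the difference between labels was lower than in experiments 2 and 3 for each of them. The same held at the brightest probes of Tpm1, Vcl, Srf and Myh9, but not of Tpm2. The control signal is subtracted in each difference, so a high control array by itself lowers the difference. Since whole cultures were measured, more cells with a given transcript and more of it per cell cannot be told apart.

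**Figure D2:**
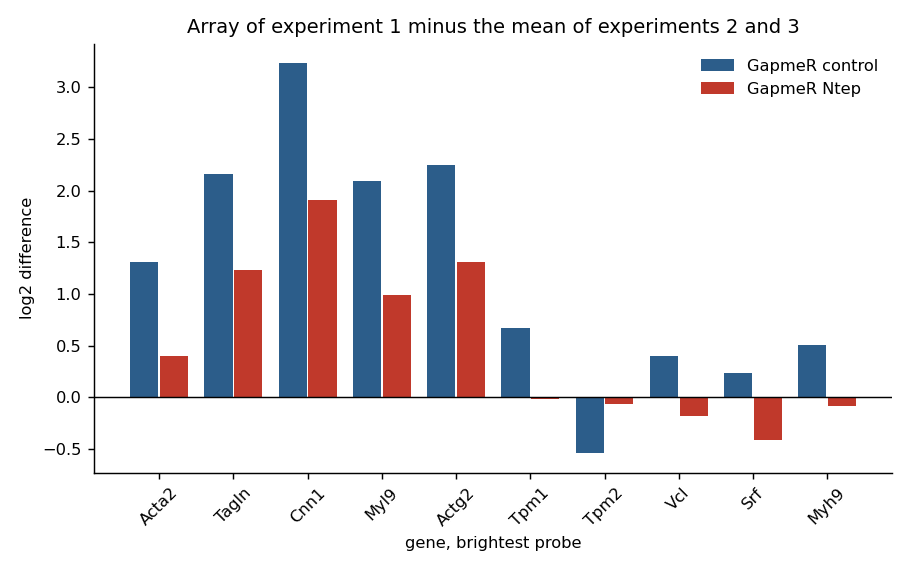
Log2 difference between the array of experiment 1 and the mean of the arrays of experiments 2 and 3, for GapmeR control (blue bars) and GapmeR Ntep (red bars), brightest probe of each gene, with 1 bar per gene and label. The 5 genes on the left, Acta2 to Actg2, have control bars from 1.31 to 3.23, the last being that of Cnn1, which the floor sets.

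**Figure D3:**
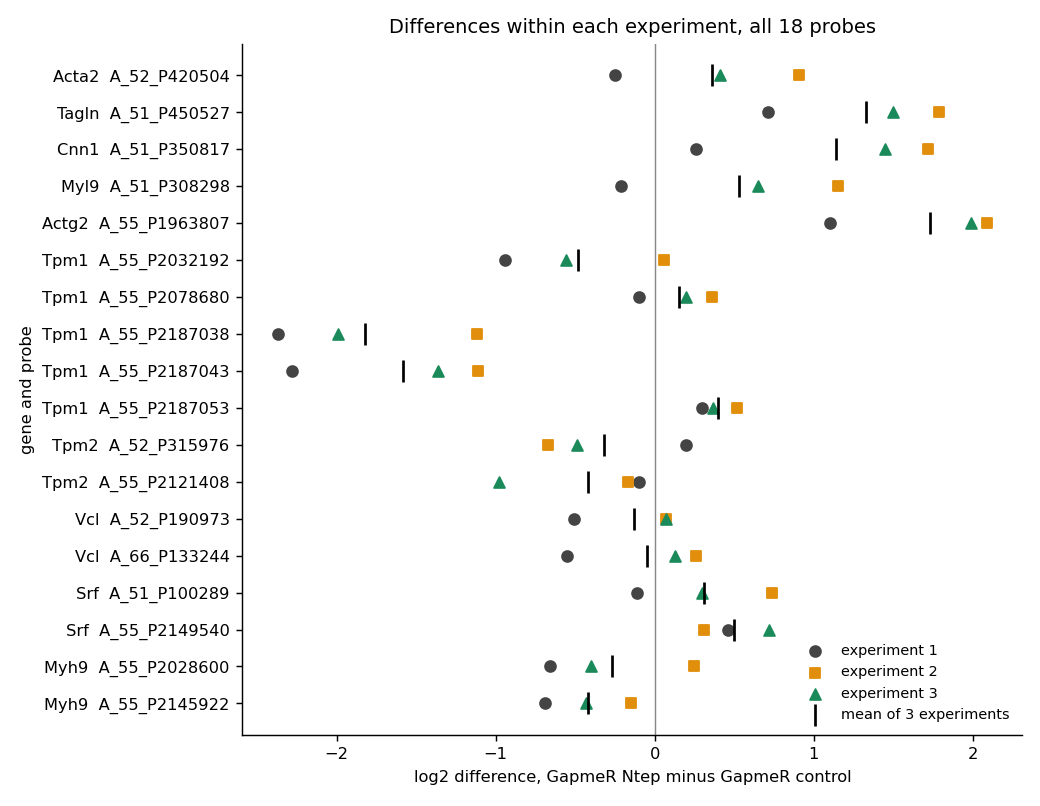
Log2 difference of GapmeR Ntep minus GapmeR control within experiment 1 (circles), 2 (squares) and 3 (triangles) for all 18 probes, with the mean as a vertical tick. The probes of Actg2 and Tagln lie right of 0 and Tpm1 probes A_55_P2187038 and A_55_P2187043 left of 0 in every experiment.

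Tpm1 makes many transcripts through alternative promoters, exons and ends, and its product winds along actin filaments and sets which proteins can bind them. Its 5 probes gave different answers. Probe A_55_P2187038 (chr9:66875796-66875855, mm9) read 6674, 12500 and 7140 on GapmeR Ntep and 34420, 27120 and 28350 on GapmeR control. All GapmeR Ntep arrays lay below all control arrays. Its differences within experiments were -2.37, -1.12 and -1.99, and on average it fell by 1.82 (SE 0.29), which is 3.54-fold lower (limma adjusted p = 0.0322, with blocks 0.0391). Probe A_55_P2187043 (chr9:66875782-66875841) read 5356, 9634 and 8770 against 25940, 20790 and 22450, again with no overlap. It fell by 1.58 (SE 0.27), which is 2.99-fold lower (limma adjusted p = 0.0356, with blocks 0.0441). For both probes the exact permutation p was 0.1, the smallest possible.

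The files list the same 3 RefSeq transcripts for these 2 probes, and the probes share 46 of 60 bases, so they are not independent measurements. Their first 30 bases are shown with the shared letters in capitals, together with those of the 3 other probes, because the finding for Tpm1 depends on which stretch was read.
A_55_P2187038: ccttagggccaggcACAGACTGCTTTCTAT
A_55_P2187043: ACAGACTGCTTTCTATtgtacagaagcaat
A_55_P2078680: ggaagaacagttaagaataatggatcagac
A_55_P2187053: gagggctgcctgcctggcccgtgtttccct
A_55_P2032192: gaaaaccttagtatgcaccagatgctggat

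The brightest Tpm1 probe, A_55_P2032192 (chr9:66871166-66871225, listed for 4 other transcripts), read 24620, 32770 and 19070 on GapmeR Ntep and 47220, 31370 and 28130 on GapmeR control. The labels overlapped, and the difference of -0.48 (SE 0.30) did not pass (limma adjusted p = 0.368). Probe A_55_P2187053 (chr9:66872131-66872190, listed for 2 other transcripts) went the other way in each experiment. It read 1120, 1006 and 924.3 against 910.2, 701.6 and 715.6, with no overlap and a difference of 0.40 (SE 0.19, limma adjusted p = 0.251). Probe A_55_P2078680 (chr9:66880274-66880333, listed for 3 transcripts, 1 of them shared with the probes that fell) differed by 0.15 (SE 0.22, limma adjusted p = 0.699).

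Within each array the log2 ratio of A_55_P2187038 to A_55_P2032192 ran from -1.88 to -1.39 on GapmeR Ntep and from -0.46 to 0.01 on GapmeR control. The labels did not overlap, and the ratio differed by -1.34 (a description only, since the ratio was formed after the values of the probes had been seen). The call was often lost with 1 array left out, while the difference of A_55_P2187038 stayed between -2.11 and -1.66. Each such fit also has fewer arrays. Without GapmeR control replicate 1, 2 or 3 the limma adjusted p of A_55_P2187038 was 0.0705, 0.138 and 0.123, and without GapmeR Ntep replicate 1 or 3 it was 0.0669 and 0.112. That of A_55_P2187043 was 0.0755, 0.145 and 0.137 without a control array and 0.111 without GapmeR Ntep replicate 3. Tpm1 still passed without GapmeR Ntep replicate 1 (A_55_P2187043, limma adjusted p = 0.049) and without replicate 2 (limma adjusted p = 0.0384 and 0.046). Without experiment 1 the values were 0.0781 and 0.0507 unpaired and 0.110 and 0.0998 with blocks, so that Tpm1 did not pass.

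**Figure D4:**
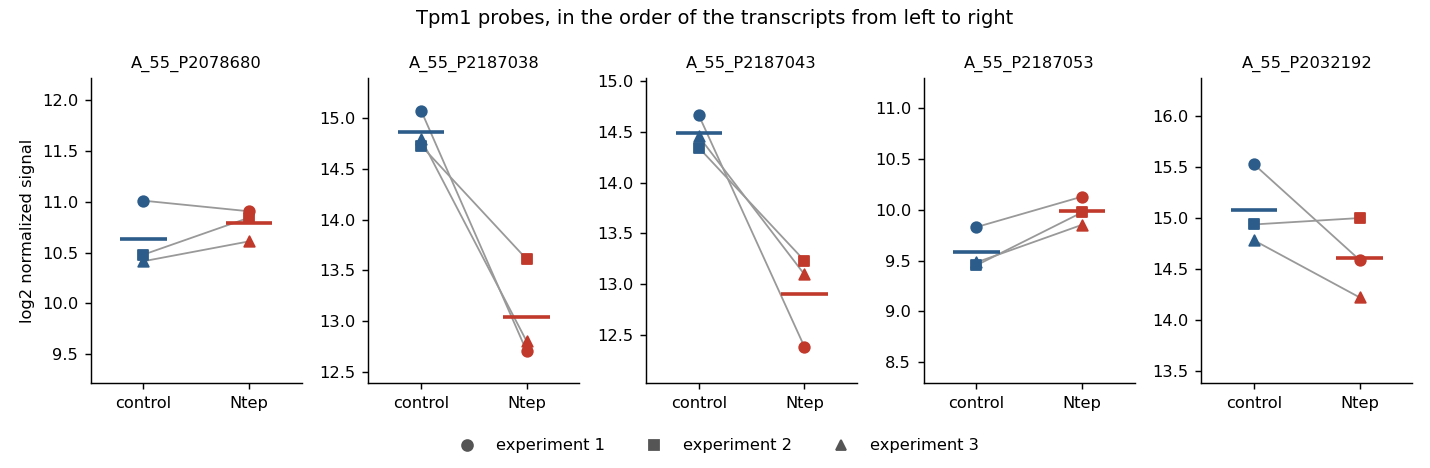
Log2 normalized signal of the 5 Tpm1 probes, ordered along the gene from its start to its end, on GapmeR control (blue) and GapmeR Ntep (red) arrays, with lines joining arrays of 1 experiment and bars at the label means (n = 3). Every panel spans the same height. A_55_P2187038 and A_55_P2187043 drop in all experiments, and the other 3 move by -0.48 to 0.40 on average.

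Tpm2, the gene of beta-tropomyosin, was lower by 0.42 at its brightest probe without passing the test. The probe A_55_P2121408 read 18590, 23340 and 16230 on GapmeR Ntep and 19890, 26320 and 32010 on GapmeR control, a difference of -0.42 (SE 0.25, limma adjusted p = 0.353). Most of this lay in experiment 3, where it was -0.98. The other Tpm2 probe differed by -0.32 (SE 0.29, limma adjusted p = 0.526).

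Vcl encodes vinculin, which links integrin adhesions to actin. It read 9179, 11150 and 9728 on GapmeR Ntep and 13100, 10640 and 9265 on GapmeR control, so that the labels overlapped. The difference was -0.13 (SE 0.20, limma adjusted p = 0.721), and the other probe gave -0.05 (SE 0.25, limma adjusted p = 0.915). Both were lower in experiment 1 and slightly higher in the other experiments.

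Srf itself read 9493, 12880 and 12280 on GapmeR Ntep and 10240, 7714 and 9948 on GapmeR control at its brightest probe. The difference of 0.31 (SE 0.21) did not pass (limma adjusted p = 0.407), and it was negative in experiment 1 (-0.11) and positive in experiments 2 (0.74) and 3 (0.30). The other probe, A_55_P2149540, read 8951, 3237 and 4915 against 6496, 2619 and 2973. It was higher in each experiment, by 0.46, 0.31 and 0.72, with a mean of 0.50 (SE 0.50, limma adjusted p = 0.562, with blocks 0.107).

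Myh9, the heavy chain of nonmuscle myosin IIA, read 84790, 119200 and 67130 on GapmeR Ntep and 134100, 100100 and 88660 on GapmeR control. The labels overlapped, and the difference was -0.27 (SE 0.28, limma adjusted p = 0.577). A dim probe for the same gene, A_55_P2145922, was well above background on only 1 array of each label and was tested only because its control mean exceeded 50. It read 32.78 to 47.98 against 51.56 to 53.27, with no overlap and a difference of -0.42 (SE 0.19, limma adjusted p = 0.242).

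Other genes of the SRF pathway were taken from lists of further cytoskeletal targets, immediate early targets, myosin regulators and adhesion partners. Of 25 tested cytoskeletal targets, Actg1 alone passed, at 1 of its 5 probes. That probe, A_52_P72237 for cytoplasmic gamma-actin, rose by 0.85 (SE 0.15, limma adjusted p = 0.0384, with blocks 0.0392), while the brightest Actg1 probe differed by 0.18 (limma adjusted p = 0.526). The list had 14 genes higher and 11 lower and a median difference of 0.06. The 3 brightest on the control arrays were Actb (cytoplasmic beta-actin), Myl6 (an essential myosin light chain) and Flna (an actin crosslinker), which differed by 0.02, -0.03 and -0.26 at their brightest probes without passing. With blocks 2 of the 25 genes rose, against 8.84% of all genes. Actg1 rose also at probe A_55_P1985984 (difference 0.77, limma adjusted p = 0.0513 without and 0.0419 with blocks). A dimmer probe assigned to Actb, A_55_P2041355, rose with blocks (difference 0.74, limma adjusted p = 0.314 without and 0.0448 with blocks). That probe is placed on chromosome X, while the brightest Actb probe is placed on chromosome 5. The latter had a limma adjusted p of 0.911 with blocks, so Actb counts among the 2 genes by the chromosome X probe alone.

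Of 8 tested immediate early targets of the ternary complex factors 3 rose, against 3% of all genes that passed upwards. All 8 were higher by their brightest probe, against 7644 of all 15242 tested genes, with a median of 1.33. Within experiments 1, 2 and 3 the median was 2.37, 1.09 and 0.61. The 3 were Fosb, a subunit of the transcription factor AP-1, and the zinc finger factors Egr1 and Egr2. Fosb rose by 2.46 (SE 0.30, limma adjusted p = 0.0243), Egr1 by 2.43 (SE 0.31, limma adjusted p = 0.0255) and Egr2 by 1.79 (SE 0.35, limma adjusted p = 0.0467), and none of them overlapped between labels. Mcl1 and Nr4a1, bright genes of the same list, differed by 0.10 and 0.57 without passing. Fos and Egr3 were higher mainly in experiment 1, with differences of 4.71, -0.07 and 0.37 for Fos and 2.42, -0.32 and -1.21 for Egr3. Egr3 was tested only because of its GapmeR Ntep signal (mean 53.78 against 34.11), so its place among the 8 and in the median rests on that label. A test of this list against the contractile genes was not run.

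None of 8 genes of myosin and light chain regulation passed (6 lower, median -0.57, with 2 higher and 3 lower at an unadjusted limma p under 0.05). The share of all genes at that unadjusted limit is not given, here or for the lists below, so these counts have no background. Of the 2 higher, Mylk was tested only because of its GapmeR Ntep signal (mean 72.91 against 44.28). The other, Myh14, was higher at a dim probe (119.7 against 63.35) and differed by -1.07 at its brightest. Ppp1r14b, Ppp1cb and Myl12b, the brightest of the list, differed by 0.13, -0.55 and -0.13. None of 11 focal adhesion partners of vinculin passed either (8 lower, median -0.30, with 2 lower at the unadjusted limit), and their 2 brightest genes, Bcar1 and Ilk, differed by 0.10 and -0.11. With blocks 1 of the 11 fell, against 10.2% of all genes. It was Tns1 at probe A_55_P2030578 of 3 (difference -0.90, SE 0.20 unpaired, limma adjusted p = 0.056 without and 0.0391 with blocks). The median over all genes was 0.

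**Figure D5:**
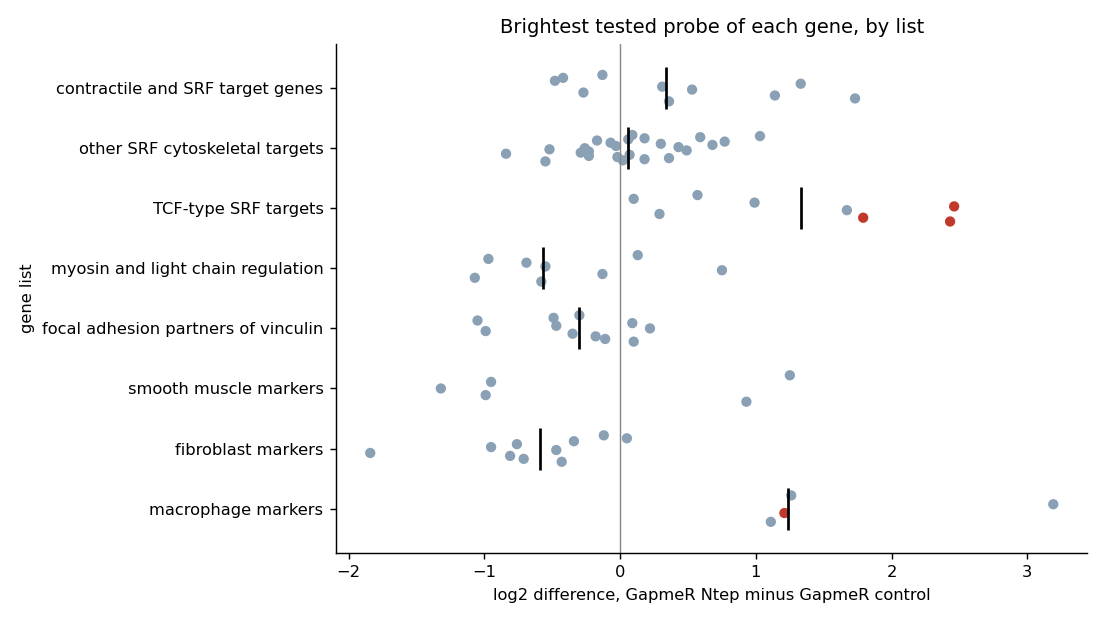
Log2 difference of GapmeR Ntep minus GapmeR control for the brightest tested probe of each gene, by list, with red points for probes with an adjusted p under 0.05 and a black line at the median of each list but that of smooth muscle markers. The immediate early targets have a median of 1.33 and the contractile and SRF target genes one of 0.34. Among the former, Egr3 was tested only because of its GapmeR Ntep signal.

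Markers of differentiated smooth muscle were detected in part. Myh11, Lmod1, Synpo2 and Itga8, 4 of 9 listed, were not well above background on any array. Of the 5 tested, Smtn, which encodes the actin-associated protein smoothelin, rose by 1.16 at probe A_51_P479786 (SE 0.24, limma adjusted p = 0.05, just under the limit). Its brightest probe differed by 1.25 (SE 0.37, limma adjusted p = 0.108 without and 0.0402 with blocks). Acta1, skeletal alpha-actin, was higher in each experiment, by 0.77, 0.92 and 1.10 (mean 0.93, SE 0.44), with a limma adjusted p of 0.255 without and 0.0389 with blocks. Des, the intermediate filament gene desmin, differed by -0.95 (limma adjusted p = 0.261). Ckm and Actc1 were at or near the floor on all GapmeR Ntep arrays and were tested only because of control arrays, so no median is given for this list. Its summed signal, nearly all of it Smtn, was 24230 to 36290 on GapmeR Ntep and 9647 to 21040 on GapmeR control.

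Fibroblast markers were each detected on at least 1 array of both labels, although Dcn was well above background on only 1 of the GapmeR Ntep arrays. All 10 were tested and none passed in unpaired limma (2 lower at the unadjusted limit). By the brightest probe 9 were lower, and the median was -0.59. Col3a1 and Col1a2 (fibrillar collagens) and S100a4, the brightest, differed by -0.81, -0.71 and -0.34. With blocks 1 of the 10 fell, against 10.2% of all genes. It was Dcn, the proteoglycan decorin, with differences of -1.49, -1.80 and -2.22 within experiments (limma adjusted p = 0.364 without and 0.031 with blocks). The summed signal of the fibroblast markers was 555800 to 737700 on GapmeR Ntep and 808700 to 892000 on GapmeR control. Macrophage markers were in part higher. Of 6 listed genes Ptprc, a marker of all leukocytes, and Adgre1, a marker of mouse macrophages, were not well above background on any array, and the 4 tested were all higher with a median of 1.23. Cd68, a lysosomal glycoprotein, rose by 1.21 at its brightest probe (SE 0.17, limma adjusted p = 0.0287). Its dimmer probe, A_55_P2067583, differed by 0.68 without passing (limma adjusted p = 0.143 without and 0.118 with blocks). Itgam and Cd14 differed by 1.26 and 1.11 at their brightest probes without passing. The other tested Itgam probe, A_55_P1977926, was dim and differed by -0.03 (mean 76.91 against 77.73). With blocks all 4 tested genes rose, against 8.84% of all genes. The summed signal of the macrophage markers was 42380 to 75130 on GapmeR Ntep and 19840 to 27310 on GapmeR control. In experiment 1 a single Itgam probe gave 45780 of the 75130 on GapmeR Ntep and 14650 of the 27310 on GapmeR control. Of the epithelial and endothelial markers none of 4 and none of 2 tested passed (1 of each higher at the unadjusted limit). Krt8, Krt18 and Cdh1 differed by 0.20, 1.56 and 0.47, and Kdr and Pecam1 by 0.41 and 0.38, while Cdh5 was not well above background. The part of these markers in the differences of the contractile genes was not tested.

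The genes whose brightest probe followed that of Acta2 most closely over the 6 arrays, out of 15241, included Gm11961, Ptges3, Map3k13 and Arhgef18, with Pearson correlations of 0.999, 0.995, 0.994 and 0.994. They differed by 0.08 to 0.19 between labels and none passed the adjusted limit. With 6 arrays and this many genes such values describe the arrays only.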

How the data were processed

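RNA of 3T3 cells was measured on 6 Agilent 1-color arrays (1 slide). The authors extracted the intensity of each spot with Feature Extraction 10.7.3.1 and deposited background-subtracted intensities that had not been normalized between arrays, together with a table of quantile-normalized intensities in which values under 20 were set to 20. The methods and the array files name different formats of this array. The files place the probes on mm9, and depth in the sense of counts does not apply. The number of arrays limits the precision.

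Spots of a probe were averaged and the arrays quantile normalized, with a floor of 20. The log2 signals entered limma 3.58.1 (R 4.3.3), unpaired and two-sided, for the 30990 probes whose mean reached 50 in either label. Genes were matched through a RefSeq table (31239 probes to 22942 genes) and passed with any probe. The supplementary lists pair the arrays by experiment. The residual correlation was 0.466, 0.300 and 0.254 between arrays of 1 experiment and ranged from -0.327 to 0.126 between the rest, so values with experiments as blocks are given where they change a call on a gene the text names. Permutation tests used SciPy 1.17.1. The genes and lists were chosen with earlier results of these data known. Named were all 10 genes, and of each other list the genes that passed and the 3 brightest on control arrays, the 5 genes most like Acta2, and Ntep. Some genes under this rule, and 1 list, are not reported here, and Fos, Egr3, Tns1, Dcn, Ckm and Actc1 were named after their values were seen. Alternatives covered scaling, background, floor, filter, variance, weights, pairing and left-out arrays. The unpaired limma fit was tested on simulated data, which held no differences between experiments.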

Additional observations from a re-analysis of the deposited data

How the results depend on the processing

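The median difference of the 10 genes stayed above 0 in every setting run (0.34 as reported, 0.11 to 0.59 with 1 array left out). Of 10 genes, 1 passed the adjusted limit. The count was 0 with a floor of 50, without the filter on dim probes and by the methods' t-test, 0 to 1 with 1 array left out, 3 with the replicate block, and 5 with array weights, where 42.1% of all genes passed. At the limits of fold and unadjusted p it was 1, with 2 under array weights, 3 with the replicate block and 1 to 3 with 1 array left out. Of the other SRF and contractile lists, with 5 to 25 tested genes each, 5 genes passed. The count was 3 with 75th percentile scaling, 10 with normexp, 9 with probes well above background, with an intensity trend or with the replicate block, 26 with array weights, and 1 with a floor of 50, without the filter or by the methods' t-test. Of all tested genes 7.39% passed as reported, 19% with the replicate block and 42.1% with array weights. Shares for the other settings are not given, so these counts are not read as a response of the lists. With 1 array left out the count of the other lists was 0 to 3, namely 2 and 3 without GapmeR Ntep replicates 1 and 2, 1 without GapmeR control replicate 1 and 0 without the others.

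Settings chosen after seeing the data left out experiment 1. Then 2 genes passed the adjusted limit (Actg2 and Cnn1, while Tpm1 was lost), 4 the fold and unadjusted p, and 2 genes of the other lists. With the replicate block and without experiment 1 these counts were 0, 4 and 0. The share of all genes that passed is not given for either setting, so these counts have no background. Cnn1 was tested there only because of its GapmeR Ntep signal, with its control arrays at or near the floor. With the spread estimated over all probes 1 gene passed, and probe A_55_P2187043 of Tpm1 had an adjusted p of 0.0507.

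Of the 18 probes, 3 changed direction in some setting. Vcl probe A_66_P133244 gave 0.00 with normexp, 0.02 with array weights, -0.22 to 0.14 with 1 array left out and 0.20 without experiment 1, with or without the replicate block. Vcl probe A_52_P190973 gave -0.24 to 0.01 with 1 array left out (0.01 without GapmeR control replicate 1) and 0.07 without experiment 1, and the dim Myh9 probe, at -0.42 as reported, gave 0.01 with normexp. Under 75th percentile scaling the median over all genes was 0.15 higher. The causes were not tested. Probes not well above background, such as Cnn1 on several arrays, are limited by the floor.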
